A study of Mus musculus with 2 samples.

Results

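The plasma carrier proteins described here are 10 genes whose products circulate in blood bound to hormones, vitamins, metals, fatty acids or other ligands. They are Alb, Afp, Gc, Ttr, Rbp4, Trf, Ambp, Ahsg, Fetub and Cp, out of 37074 gene names and identifiers on the arrays. The genes were chosen by name, with the processed signals of these same arrays already known, so their differences between the groups are given as a description and none of them was tested. The arrays held 12 probes for them in 21 spots, with 2 probes each for Gc and Trf, 10 spots for the single probe of Afp, and 1 spot for every other probe. RNA of the prefrontal cortex (PFC) of male C57Bl/6 N sea mice was measured, and the labels name no transgene or deletion in either group. The control (C) group received ordinary care and was housed in groups, whereas mice of the CMS group were housed singly and went through chronic mild stress (CMS), a schedule of varied mild stressors, for 4 weeks from an age of 9 to 10 weeks. RNA of 7 mice per group, as the series' design text states, was mixed into 1 pool and each pool was hybridized to 1 one-color Agilent array, so the spread between mice could not be measured. The paper's methods name 10 mice in each group for microarrays and quantitative PCR, and do not give the number in a pool. That number thus rests on the design text alone. Housing and stressors differed together and cannot be told apart. In tissue of mixed cells, more cells of a type and more RNA per cell also cannot be told apart.

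Most plasma carriers are made by hepatocytes and secreted into blood, where they keep poorly soluble or reactive ligands in solution and limit their loss through the kidney. The brain is separated from plasma by the blood-brain barrier and makes a few carriers itself. Ttr is the classic product of the choroid plexus, the epithelium that secretes cerebrospinal fluid, Trf is made by oligodendrocytes and choroid plexus, and Cp is held on the surface of astrocytes by a lipid anchor.

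All 10 genes had a higher signal in the CMS pool than in the C pool, but with very different ratios, and by ratio they fell into 2 sets. Alb, Ttr, Ahsg, Gc, Ambp and Fetub were 5.89-fold to 11.6-fold higher in the CMS pool. Cp, Rbp4 and Trf, which had a ratio of 2.02, 1.93 and 1.62, were closer to the 2-fold limit for a call, and the bound for Afp was lower than these. In all, 7 of the 10 were over 2-fold higher and 0 were below 0.5 times the C pool. Among all 27119 genes with a ratio, 1.96% were over 2-fold higher and 0.564% were below 0.5 times. Of the genes past either limit 77.7% were higher, and 63.2% with no scaling between the arrays. The median log2 ratio of CMS over C was 2.80 for the 10 genes and -0.03 for all genes. Because the genes were picked from these arrays, nothing is read from this contrast. Signals here are the scanner's processed intensities scaled to a mean of 2500 per array, and a log2 ratio of 1 is a 2-fold difference.

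**Figure D1:**
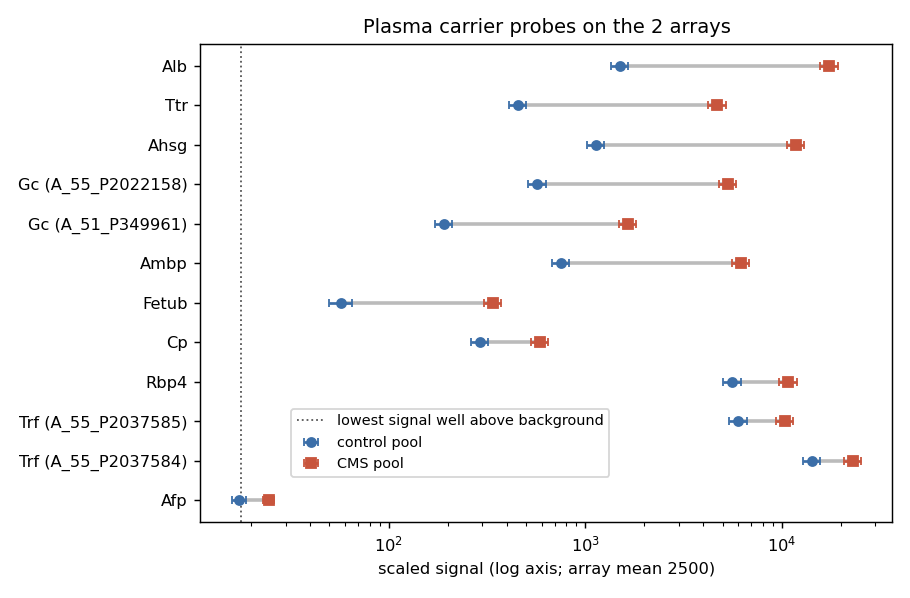
Scaled signal (log axis) of each of the 12 carrier probes in the C pool (circles) and the CMS pool (squares), with the scanner software's error as bars and the lowest signal well above background as a dotted line. Every probe lies further right in the CMS pool, from 24.6 against 17.4 for Afp to 17486 against 1509 for Alb.

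The errors available are technical. The scanner software gives an error for each signal, and carried into the log2 ratios it lay between 0.15 and 0.24 for the 12 probes. For 342 probes with several spots, the SD of the log2 ratio among spots was 0.13. Neither covers differences between mice. No spot of the 10 genes was saturated or marked as an outlier. Around their 21 spots, within 5 rows and 5 columns, the other spots well above background had median log2 ratios between -0.08 and 0.02, and 16 of 1487 were past 2-fold in either direction, so the signals next to these spots did not move with them.

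Alb, Afp and Gc belong to 1 gene family and lie on the same chromosome, where Alb and Afp are next to each other. Alb encodes albumin, the main protein of plasma and a carrier of fatty acids, bilirubin and hormones. Its signal was 1509 ± 151 (scanner error) in controls and 17486 ± 1749 after CMS, a log2 ratio of 3.53 ± 0.20 and the largest of the 10. Only 0.0664% of all genes had a ratio as high or higher. Gc encodes the vitamin D binding protein, which also takes up actin released from damaged cells. Its first probe, A_55_P2022158, had a signal of 571 in controls and 5308 after CMS. Its second probe, A_51_P349961, had 191 and 1659. The log2 ratios of these probes, 3.22 and 3.12, differed by less than the scanner error of either, which was 0.20 and 0.21.

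Afp encodes alpha-fetoprotein, the albumin-like carrier of fetal plasma, whose gene is largely silenced in the liver after birth. In the C pool its 10 spots had a median of 15.2, a highest value of 25.7 and a lowest of 11.999, and 3 of them were well above background. In the CMS pool the median was 22.5, with 14.7 as the lowest and 39.3 as the highest value, and 6 were well above background. The ranges overlapped, and the signal was higher in the CMS pool for 9 of the 10 positions on the array. The means were 17.4 ± 5.1 and 24.6 ± 7.4 (SD of 10 spots on 1 array). As most control spots were not well above background, the CMS mean was set against 17.8, the lowest control signal of any probe that was. In this setting Afp was higher by at least 1.38-fold, a log2 ratio of at least 0.47. The bound holds for that setting only, as the log2 ratio was 0.14 under normexp with quantile normalization. Among the 10 spots the SD of the Afp log2 ratio was 0.34. Among 2739 genes with a mean log2 signal under 5, 21.4% had a ratio as high as that of Afp.

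**Figure D2:**
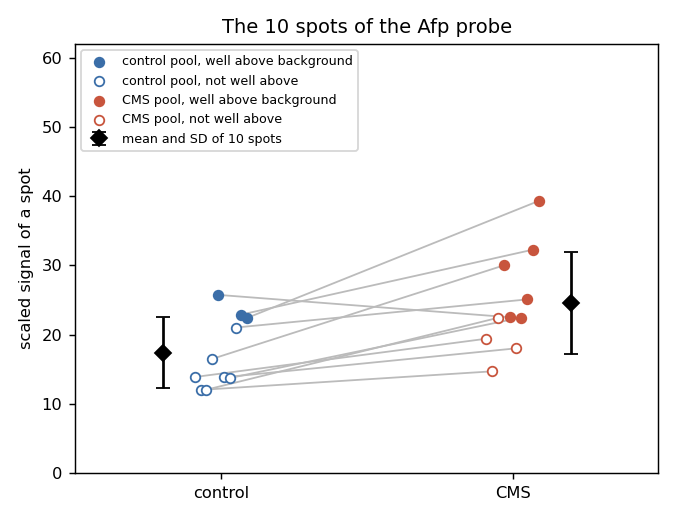
Scaled signal of the 10 spots of the Afp probe in the C pool and the CMS pool, with lines joining the same position on both arrays, filled points for spots well above background and diamonds for the mean and SD. The highest spot is 25.7 in controls and 39.3 after CMS, and 9 of 10 lines go up.

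Ahsg and Fetub encode the fetuins, liver proteins of the cystatin superfamily. Ahsg (fetuin-A) binds calcium phosphate and keeps it from precipitating, and Fetub (fetuin-B) inhibits the protease that hardens the coat of the egg. The genes are neighbors on 1 chromosome. Ahsg had a signal of 1135 ± 114 in controls and 11783 ± 1178 after CMS, a log2 ratio of 3.38 ± 0.20. Fetub had 57.5 ± 7.4 in controls and 338 ± 34 after CMS, and its log2 ratio was 2.56 ± 0.24. Before background subtraction the Fetub spot read 103 over a local background of 46.5 in the C pool and 335 over 35.0 in the CMS pool. The log2 ratio of Fetub was the most sensitive of the 10 to background correction, and was 1.67 after normexp correction. Both fetuins were well above background in both pools.

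Promoter sequences of the carrier genes were looked at, since many liver carrier genes share binding sites of a few liver-enriched factors. RefSeq (GRCm38.p6) promoters, of 250 bases before and 50 after the annotated start, were matched for 8 of the 10 genes, and no entry was used for Ttr and Trf. The 120 bases before the start are shown for the chromosomal neighbors Alb and Afp, for both fetuins (first annotated start of Fetub) and for Ambp, written 5′ to 3′ on the strand of the gene. Capitals mark matches to the letters searched, which are spelled out after the sequences, and matches further from the start lie outside these stretches. The windows of Gc, Rbp4 and Cp and of the other start of Fetub were searched too but are not shown. The stretches shown thus do not stand for all 8 genes, nor for all genes of the set with the larger ratios.
Alb, chr5:90460750-90460869, plus strand: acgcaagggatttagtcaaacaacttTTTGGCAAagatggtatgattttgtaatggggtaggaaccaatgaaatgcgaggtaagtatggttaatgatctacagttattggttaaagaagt
Afp, chr5:90490594-90490713, plus strand: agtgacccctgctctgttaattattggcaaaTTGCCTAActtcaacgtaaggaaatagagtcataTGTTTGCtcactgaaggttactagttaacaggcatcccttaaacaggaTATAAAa
Ahsg, chr16:22891895-22892014, plus strand: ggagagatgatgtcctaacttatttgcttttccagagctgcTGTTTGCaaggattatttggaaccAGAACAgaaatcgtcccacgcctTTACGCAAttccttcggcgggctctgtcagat
Fetub, chr16:22918262-22918381, plus strand: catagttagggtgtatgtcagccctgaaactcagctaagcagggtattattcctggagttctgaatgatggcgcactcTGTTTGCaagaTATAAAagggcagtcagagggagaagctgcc
Ambp, chr4:63154173-63154292, minus strand: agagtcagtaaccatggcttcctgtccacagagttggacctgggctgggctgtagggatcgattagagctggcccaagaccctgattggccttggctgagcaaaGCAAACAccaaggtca

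On both strands, 5 sets of letters were searched, and no matches in these genes overlapped except TATAAA on both strands of Cp: CAAAGTNCA for HNF4, TGTTTNC for the FOXA factors, TTGCNNAA for C/EBP factors, TATAAA for the TATA box, and TGTTCT for the glucocorticoid half-site. Positions are counted from the base before the start as -1. The FOXA letters, found in 20.5% of 32851 promoters of the same length, matched at -128 to -122 in Alb, -55 to -49 in Afp, -79 to -73 in Ahsg, -42 to -36 before the first start of Fetub and -16 to -10 in Ambp, and also in Rbp4 and before the other start of Fetub. The C/EBP letters, in 10.8% of promoters, matched in Alb, Afp, Ahsg, Rbp4 and Cp. The HNF4 letters, in 1.41% of promoters, matched in none of the windows, and the window of Gc held no match to any set. TATAAA, in 13.6% of promoters, matched in Afp, Rbp4, Fetub and Cp, and TGTTCT, in 19.0%, matched in Afp, Ambp, Ahsg, Fetub and Cp. A match to letters is a description and not a bound site.

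Ttr, Rbp4 and Ambp carry small ligands. Ttr (transthyretin) carries thyroxine and forms a complex with Rbp4, the retinol-binding protein that brings vitamin A from liver stores to tissues. Ambp encodes a precursor that is cut into alpha-1-microglobulin, which binds heme and radicals, and bikunin, a protease inhibitor. Ttr had a signal of 453 ± 45 in controls and 4711 ± 471 after CMS, a log2 ratio of 3.38 ± 0.20. Ambp had 756 ± 76 in controls and 6190 ± 619 after CMS, a log2 ratio of 3.03 ± 0.20. Rbp4 had 5614 ± 561 in controls and 10818 ± 1082 after CMS. Its log2 ratio was 0.95 ± 0.20, below the 2-fold limit in all 10 settings tried. Ttr and Rbp4, partners in plasma, thus had log2 ratios far apart. Their differences in signal (CMS minus C) were closer, with 4258 for Ttr and 5203 for Rbp4.

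Trf and Cp carry metals. Trf (transferrin) carries ferric iron to cells with transferrin receptors, and Cp (ceruloplasmin) is the copper-containing ferroxidase that oxidizes iron for loading onto transferrin. The first probe of Trf, A_55_P2037584, had a signal of 14224 ± 1422 in controls and 23027 ± 2303 after CMS. The second, A_55_P2037585, had 6021 ± 602 and 10381 ± 1038. Their log2 ratios were 0.69 and 0.79, each with a scanner error of 0.20, and both were below 2-fold. Cp had 291 ± 30 in controls and 588 ± 59 after CMS, and its log2 ratio of 1.01 ± 0.21 was just over the limit. It was over 2-fold in 8 of the 10 settings, and was 0.84 both with no scaling between the arrays and after normexp correction, so its call rests on the setting.

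For scale, a limit of 1.5-fold, set after the values were seen, was passed by 9 of the 10 genes, all but Afp, and by 3.66% of all genes. Among the 4695 genes with a mean log2 signal above 12, only 21, or 0.447%, were over 1.5-fold higher, and Alb, Rbp4 and Trf were among them. Since the genes were picked from this contrast, nothing is read from these shares. With no scaling, the log2 ratio of Trf was 0.52 and 8 of the 10 genes passed 1.5-fold.

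**Figure D3:**
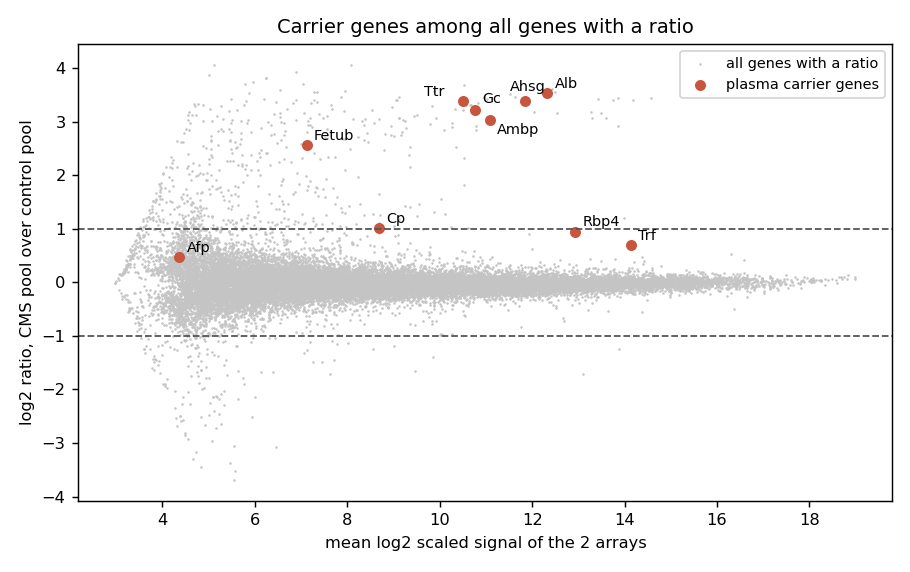
Log2 ratio of CMS over C against the mean log2 scaled signal for the 27119 genes with a ratio (grey) and the 10 carrier genes (red), with dashed lines at 2-fold. Rbp4 and Trf, at 0.95 and 0.69, lie above nearly all genes of like brightness, whereas Afp lies within the spread of dim genes.

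In order of log2 ratio, the genes ran Alb, Ttr, Ahsg, Gc, Ambp, Fetub, Cp, Rbp4 and Trf, followed by the lower bound of Afp, which fixes no place for that gene. Each of the steps from Alb to Ambp was 0.18 or less, within the combined scanner error of 0.29, so adjacent genes among these 5 did not differ beyond it. The step from Ambp to Fetub was 0.48, with an error of 0.31, and the step from Fetub to Cp was 1.55, the widest. The steps from Cp to Rbp4, from Rbp4 to Trf and from Trf to the bound of Afp were 0.07, 0.25 and 0.23, again within the error. Both fetuins were in the upper set and both metal carriers in the lower, whereas the carriers of small ligands (Ttr, Rbp4 and Ambp) had genes in each. These sets rest on ratios, and the difference in signal (CMS minus C) on the probes used gave another order. It was 15977 for Alb, 10648 for Ahsg, 8803 for Trf, 5434 for Ambp and 5203 for Rbp4. Gc had 4737, Ttr 4258, Cp 297 and Fetub 281. Of the albumin family, Alb and Gc were in the upper set, and Afp had only a bound. Log2 ratios ran from 0.47, the lower bound of Afp, to 3.53 in the albumin family and from 0.95 to 3.38 in carriers of small ligands. They ran from 2.56 to 3.38 in fetuins and from 0.69 to 1.01 in metal carriers.

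**Figure D4:**
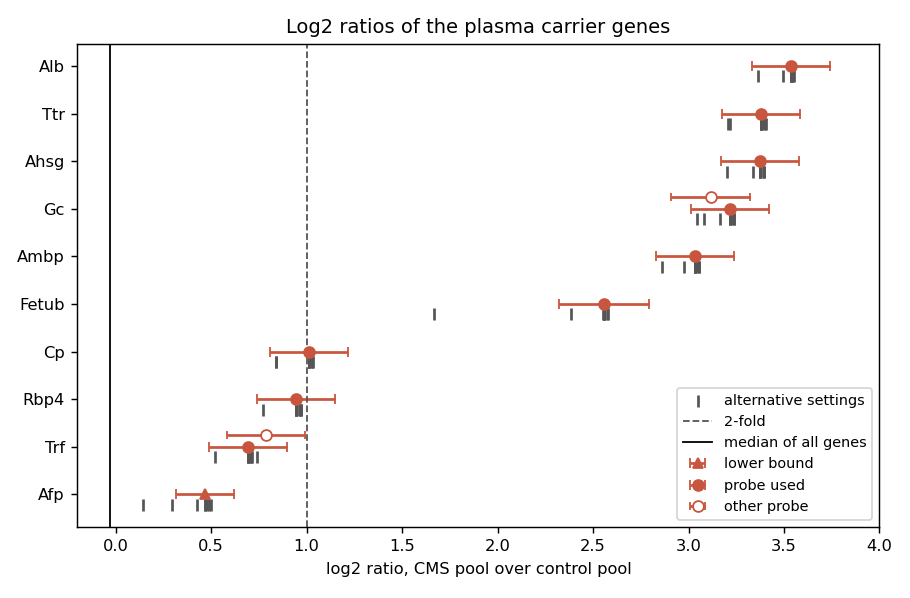
Log2 ratio of CMS over C for the 10 carrier genes, with the scanner error as bars, open circles for the second probes of Gc and Trf, a triangle for the lower bound of Afp and ticks for the alternative settings. The genes from Alb to Fetub lie between 2.56 and 3.53, and the others at 1.01 or below.

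Other carriers of plasma were compared with these genes as a list of 15. A ratio could be given for 10, of which 8 were over 2-fold higher in the CMS pool and 0 lower, with a median log2 ratio of 2.66. Afm (afamin, a vitamin E carrier of the albumin family) had a log2 ratio of 3.08, with signals of 32.1 in controls and 271 after CMS. Hpx (hemopexin, a heme carrier) had 2.96, from 317 to 2456, and Hp (haptoglobin, which binds free hemoglobin) had 2.92, from 645 to 4871. Serpina6, the corticosteroid-binding globulin, had 2.67, from 20.5 to 130. Orm1 and Orm2, near-identical acid glycoprotein genes whose probes may read both transcripts, had 2.82 and 2.66. The exceptions were carriers that many tissues make. Selenop (selenoprotein P, a selenium carrier) had 16722 in controls and 20104 after CMS, a log2 ratio of 0.27, and Tcn2 (transcobalamin) had -0.12. Serpina7, Shbg, Orm3, Igfals and A1bg were not well above background in either pool.

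Relatives and partners of the carriers also differed among themselves. Of 15 listed genes, 14 had a ratio, 6 were over 2-fold higher and 0 lower, with a median of 0.46. The kininogens Kng1 and Kng2, cystatin superfamily members like the fetuins, had log2 ratios of 2.98 and 2.94. Itih4 and Itih1, of the family of heavy chains to which the bikunin part of Ambp is joined, had 2.53 and 1.61, whereas Itih2 had 0.63 and Itih3 0.28. Among relatives known to be expressed in the brain, the log2 ratio was -0.12 for Ptgds, -0.08 for Cst3 and -0.02 for Apod. Heph, the membrane-bound relative of Cp, had -0.02, and Meltf, a relative of Trf, had 0.11. Ltf (lactoferrin), another relative of Trf, was not well above background in controls and higher by at least 2.03-fold. C8g had 1.42 on the probe used and 0.20 on its other probe, so its probes disagreed.

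Genes that receive the carriers or handle their ligands mostly stayed near a log2 ratio of 0. Of 33 listed, 31 had a ratio, 4 were over 2-fold higher and 0 lower, and the median was -0.01. For iron, Tfrc, the receptor for transferrin, had -0.13, the liver-enriched Tfr2 0.41, and the ferritin chains Fth1 and Ftl1 0.05 and 0.06. For copper, the pump Atp7b that loads ceruloplasmin had -0.01, but was dim, with 28.9 in controls and 28.6 after CMS. For retinol, Stra6, the receptor for Rbp4 at barriers, had -0.21, whereas Stra6l, its liver and intestine relative, was not well above background in controls and higher by at least 5.16-fold. Lrat, also a retinol gene, was not well above background in controls either and higher by at least 1.84-fold, with 32.8 after CMS. For thyroid hormone, Dio2, the activating deiodinase of brain, had -0.10, and Dio1, that of liver and kidney, had 1.31 on the probe used and 0.54 on its other probe. Asgr1 and Asgr2, subunits of the hepatocyte receptor that removes desialylated plasma proteins, had signals of 280 and 158 in controls and 602 and 390 after CMS, both over 2-fold higher. Stra6l, Dio1, Asgr1 and Asgr2 were the 4 past 2-fold.

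Of 13 regulators known to act on liver carrier genes, 6 had a ratio and 1 was over 2-fold higher, with a median of 0.29. Hnf4a, a nuclear receptor of hepatocytes, had 3.55, with signals of 45.1 and 529. Cebpa had 0.28, Cebpb 0.30 and Zbtb20, a repressor of Afp, -0.02. Nr5a2 was not well above background in controls and higher by at least 1.94-fold, with 38.4 after CMS. Dbp, a clock-driven activator of Alb, had -0.55, from 25710 to 17569. Foxa1, Foxa2, Foxa3, Onecut1 and Zhx2 were among those not well above background in either pool.

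Markers of cell types known to express carriers were set beside these values. All 16 hepatocyte markers listed, which leave out the carrier genes, had a ratio and stood well above background in each pool, and 14 were over 2-fold higher, with a median log2 ratio of 3.15 and a summed signal of 8257 in controls and 64348 after CMS. Serpina1a made up most of that sum, with 4275 in controls and 35977 after CMS. Tat and Hal, at 0.74 and 0.68, were the pair within 2-fold. Markers of other liver cells, of which 6 of 8 had a ratio and 4 stood well above background in controls, had a median of 1.04, with 3 over 2-fold higher and a summed signal of 407 and 633. Timd4 and Fcna of that list were not well above background in either pool. The upper set of carrier genes thus moved together with hepatocyte markers, whose part in the result was not tested.

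Markers of the brain cells that make Ttr, Trf or Cp stayed within 2-fold where they had a ratio. Of 14 choroid plexus markers without Ttr, 11 had a ratio, 0 were past 2-fold, the median was 0.08 (-0.094 with no scaling between the arrays) and the summed signal was 4276 in controls and 3988 after CMS. Kcne2, Cldn2 and Calml4 were not well above background in either pool, and Otx2 and Slc4a5 were so in only 1 pool. Kl, Tmem72 and Sostdc1 were dim, with 40.2, 31.5 and 38.1 in controls. Most of the summed signal came from Slc13a4, with 3142 in controls and 2837 after CMS. The part of choroid plexus in the result for Ttr was not tested. All 10 oligodendrocyte markers were within 2-fold, with a median of -0.15 and a summed signal of 124351 and 120957. All 8 astrocyte markers were within 2-fold, with a median of -0.04 and 41024 and 40094. Erythroid markers, with a ratio for 3 of the 6 on the arrays, lay between 0.41 and 0.62, and their summed signal was 19472 and 25828. Nearly all of that sum came from Hba-a1, with 19004 in controls and 25167 after CMS. Epb42 and Rhag were not well above background in either pool. The part of blood in the lower set of carrier genes was not tested. All 8 neuron markers stood well above background in both pools, with a median of -0.02. They show neurons in each pool, but not the brain region or whether other tissue was present. Markers of brain endothelium, meningeal fibroblasts and microglia had medians of -0.09, 0.07 and 0.05, the latter pair being -0.11 and -0.12 with no scaling, and 0 genes were past 2-fold in each list.

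**Figure D5:**
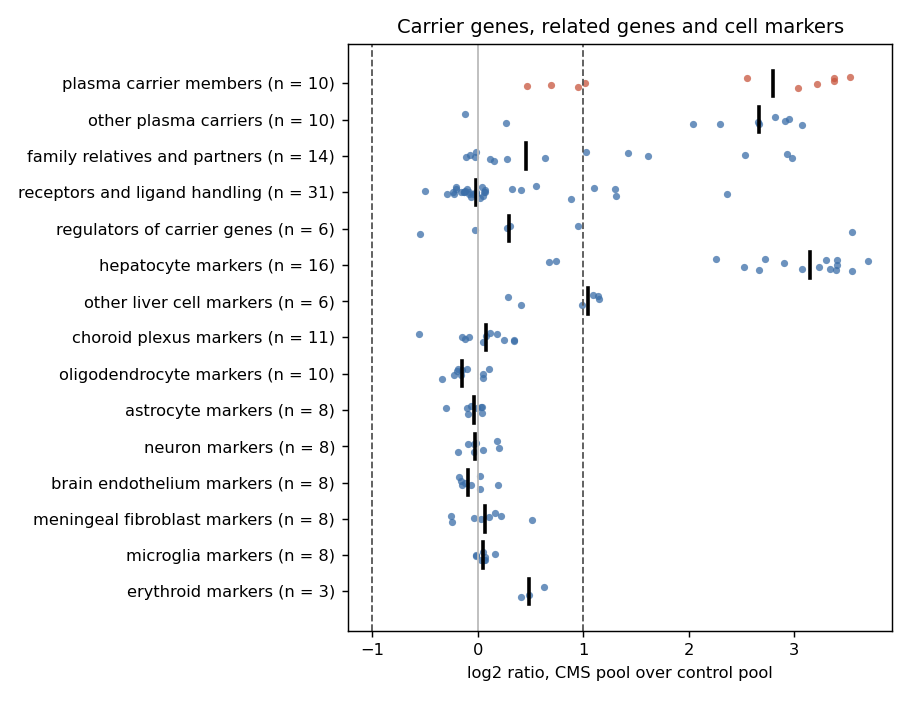
Log2 ratio of CMS over C for the 10 carrier genes (red) and the genes of each list that had a ratio (blue), with the median as a black bar and dashed lines at 2-fold in both directions. The medians are 2.80 for the carrier genes, 2.66 for other plasma carriers and 3.15 for hepatocyte markers, and between -0.15 and 0.08 for the lists of choroid plexus, glia, neurons, endothelium and meninges.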

How the data were processed

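RNA pools of the C and CMS groups were each read on 1 Agilent array, both on 1 slide. Per the file headers the authors deposited processed signal intensities from Agilent Feature Extraction 10.10.1.1, linear values from which background and spatial trend had been subtracted. A second deposited table held the same intensities times a constant for each array, the methods stating an average of 2500. Its columns had medians of 149 and 153 but means of 5307 and 5351, above that average.

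Control spots and outlier spots (130 and 133) were left out, spots of a probe were averaged, arrays were scaled to a mean of 2500, and log2 ratios were taken. A share of 0.5 of its spots had to be well above background for a probe to count as such. Where this held in 1 pool, the signal of the other was raised, if lower, to the lowest one well above background (17.8 in C, 17.6 in CMS). Fold changes are then lower bounds. Probes dim in both pools received no ratio. The brightest probe stood for a gene, and for the 10 carrier genes all probes are given. Of 59305 spots on each array, 30740 received a symbol through accessions of the RefSeq gene table of GRCm38.p6. Spots well above background made up 65.2% and 65.9%.

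With 1 array per group no test was possible, and precision is limited by that number of arrays. The carrier genes and all lists were chosen with earlier results of these data known. Named genes are the carrier genes, genes of these lists, and chromosomal neighbors. The lists were other plasma carriers, relatives and partners, receptors and ligand handling, regulators, and markers of hepatocytes, other liver cells, choroid plexus, oligodendrocytes, astrocytes, neurons, endothelium, meningeal fibroblasts, microglia and erythroid cells. Alternatives were other scalings, quantile normalization, normexp with an offset of 50, the deposited table, other rules for dim probes, outlier spots kept, and the mean of all probes. Calling was tried on simulated data with changes well past 2-fold planted in brighter genes, which does not cover dim genes or genes near the limit. Some items are not reported here. R 4.3.3, limma 3.58.1, Python 3.11.15, pandas 2.3.3 and numpy 2.4.6 were used.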

Additional observations from a re-analysis of the deposited data

How the results depend on the processing

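With 1 array per group on a shared slide, neither leave-one-out values nor a slide block could be had. No paired analysis was possible because a single pair of arrays exists. All 10 carrier genes kept a log2 ratio above 0 in every setting that gave them one, Afp having none where probes had to be well above background on both arrays. The count of 7 over 2-fold was 6 with no scaling and under normexp, where Cp fell below the limit. A log2 value was taken to have moved past the spot SD of 0.13 and a count past 1.5 times. Of the main values compared, 261 stayed and 36 moved, and of single genes 1189 stayed and 224 moved. The causes were not tested unless stated.

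With no scaling the median over all genes moved from -0.03 to -0.20, which follows from the setting itself. The medians were then 2.62 for the carrier genes, 2.49 for other carriers, 0.28 for relatives, -0.19 for receptors and ligand handling, 0.12 for regulators, 2.98 for hepatocytes, 0.87 for other liver cells (0 called higher), -0.094 for choroid plexus, -0.33 for oligodendrocytes, -0.21 for astrocytes, -0.20 for neurons, -0.26 for endothelium, -0.11 for meningeal fibroblasts, -0.12 for microglia and 0.31 for erythroid cells, and 249 genes were lower.

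Under normexp with quantile normalization, the medians were 2.32 for the carrier genes, 1.54 for other carriers, 0.32 for relatives, 0.14 for regulators, 2.41 for hepatocytes and 0.38 for other liver cells (0 called higher), and 2 receptor and ligand handling genes were called. Of all genes, 303 were called, 265 higher and 38 lower, against 685, 532 and 153. With no bound for dim probes, 1090 were called and 315 were lower. With probes required to be well above background in both pools, 338 were called, 294 higher and 44 lower, and the medians were 3.03 for the carrier genes (without Afp), 0.28 for relatives and 0.75 for other liver cells. Signal over background limits Afp, for which only a bound could be given.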

Other observations

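The protein-coding genes next to each carrier gene on its chromosome, taken from the order of the RefSeq table, were looked at as well. The 10 genes had 16 distinct neighbors that are not themselves among them, of which 14 had a ratio, with a median log2 ratio of -0.02. Over 2-fold higher were 3, and 0 were lower. These 3 were Afm, next to Afp, with 3.08, Hrg, a cystatin superfamily gene next to Fetub, with 2.04, and 1300017J02Rik, a transferrin relative next to Trf, which was not well above background in controls and higher by at least 7.08-fold. All 3 belong to the family of the carrier gene beside them. Of the neighbors from other families, several were near 0, such as Ankrd17 beside Alb, with -0.05, Dnajb11 beside Ahsg, with -0.05, Srprb beside Trf, with 0.00, Slc4a4 beside Gc, with -0.04, and Crh beside Cp, with 0.02. Among those well above background in both pools, the largest difference was that of Pde6c beside Rbp4, with 0.79 and signals of 78.7 and 136. Kif12 beside Ambp had 30.5 in controls and was not well above background after CMS, a log2 ratio of -0.79 or lower. These neighbors were chosen after the values of the carrier genes were seen.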
